A study of Mus musculus with 8 samples.

Results

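The genes described are 10 markers of GABAergic interneurons: Gad1, Gad2, Slc32a1, Pvalb, Sst, Vip, Npy, Lhx6, Sox6 and Erbb4. They were chosen by name, out of 18610 protein-coding genes with at least 1 CpG cytosine read in every library, and their methylation was followed through the gene span and 5 kb on either side. The data are reduced representation bisulfite sequencing (RRBS) of genomic DNA from male C57 BL/6 mice: 4 mice labelled as cocaine self-administration and 4 mice of the matching saline condition, with 1 library per mouse. RRBS enriches for restriction fragments rich in CpG and reads, at each cytosine, the share of DNA copies that are methylated. The tissue was labelled the dDG DGC layer and was obtained by dissection, so interneurons could be a small share of the DNA. The labels give no age, dose or duration of self-administration. A level pools the DNA copies of all cells in a sample, so a change in the share of a cell type and a change within its cells cannot be told apart.

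GABAergic interneurons are the local inhibitory cells of the hippocampus. Gad1 and Gad2 encode the glutamate decarboxylases that make GABA, and Slc32a1 encodes the vesicular transporter that loads it for release. Parvalbumin, somatostatin and vasoactive intestinal peptide mark largely separate subtypes, and neuropeptide Y is another interneuron marker. Lhx6 and Sox6 are transcription factors that act in cells from the medial ganglionic eminence, and Erbb4 is a neuregulin receptor that cortical and hippocampal interneurons carry. In mammals, starts of genes with many CpGs are mostly unmethylated in every tissue, whereas CpG-poor starts vary more between tissues.

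The deposited tables listed between 1844706 and 2236384 cytosines per library, each with at least 10 reads, and 1510385 cytosines were shared by all 8. Summed reads were lowest in cocaine mouse 3, at 87964952, and highest in saline mouse 3, at 141775386. Cocaine mouse 3 had the lowest mean level over the shared cytosines, 36.5%, in a range up to 38.2% among cocaine mice and from 37.9% to 38.3% among saline mice. Saline mouse 1 stood apart in another way. Among its cytosines that were read 30 to 40 times and had a pooled level between 20% and 80%, 14.2% were at exactly 0% or 100%, against 0.370% to 2.85% in the other 7 mice. Both libraries were kept. For tested differences of at least 4 points, the value without one or both of them is given where it moved by over 1.5 times.

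The 10 genes held 946 shared cytosines at 801 CpGs. CpGs less than 100 bp apart were joined into runs, and 83 runs had at least 3 CpGs; they are numbered along the chromosome within each gene. Of these, 43 had a level pooled over all 8 mice between 5% and 95% and were tested, 38 were below that range and 2 above it. Coverage was uneven: Sox6 had 281 cytosines, Lhx6 168, Erbb4 143, Slc32a1 126 and Gad1 108, while Gad2 had 42, Npy 38, Pvalb 28, Sst 7 and Vip 5.

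CpG methylation at the start of transcription differed among the starts that were read, and the sequences of 4 starts show it. In the 300 bases around the RefSeq start, no shared cytosine was read for Gad1, Gad2, Slc32a1, Sst and Vip. The same held for Lhx6 start 1 and Sox6 starts 1, 3, 4 and 6. Each is the 250 bases before a RefSeq start on the minus strand (build GRCm38.p6, whose chromosomes have mm10 coordinates), written 5′ to 3′, with the CpGs read in all 8 mice in capitals. They are shown because Pvalb has few CpGs and was methylated, and the Lhx6 and Erbb4 starts were almost free of methylation. Sox6 start 2 lay between them: its printed CpGs were at 4.31% to 13.6% pooled, with higher levels just after the start. The stretches lie at chr15:78206401-78206650 for Pvalb, chr7:116031048-116031297 for Sox6, chr2:36104534-36104783 for Lhx6 and chr1:69108060-69108309 for Erbb4.
Pvalb start 1: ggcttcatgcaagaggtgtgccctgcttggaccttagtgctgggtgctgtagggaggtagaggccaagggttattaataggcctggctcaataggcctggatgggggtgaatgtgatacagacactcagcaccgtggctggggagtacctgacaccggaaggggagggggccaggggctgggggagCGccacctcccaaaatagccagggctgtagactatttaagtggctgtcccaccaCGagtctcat
Sox6 start 2: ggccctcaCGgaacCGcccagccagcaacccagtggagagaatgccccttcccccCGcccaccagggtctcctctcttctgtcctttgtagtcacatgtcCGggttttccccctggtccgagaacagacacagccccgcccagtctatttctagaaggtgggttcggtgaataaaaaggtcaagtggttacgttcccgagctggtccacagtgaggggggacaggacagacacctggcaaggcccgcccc
Lhx6 start 2: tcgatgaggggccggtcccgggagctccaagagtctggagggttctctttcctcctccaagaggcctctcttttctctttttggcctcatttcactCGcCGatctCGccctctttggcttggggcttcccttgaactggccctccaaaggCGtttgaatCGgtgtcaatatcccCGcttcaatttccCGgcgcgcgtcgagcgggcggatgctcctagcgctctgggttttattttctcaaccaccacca
Erbb4 start 1: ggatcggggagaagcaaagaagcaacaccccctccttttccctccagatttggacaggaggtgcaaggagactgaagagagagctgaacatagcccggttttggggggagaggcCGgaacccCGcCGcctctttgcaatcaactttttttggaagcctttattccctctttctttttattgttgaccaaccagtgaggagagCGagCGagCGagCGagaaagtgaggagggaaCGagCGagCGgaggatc

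The Pvalb start (chromosome 15, gene span 78191112 to 78206400, minus strand) held 5 CG dinucleotides in the 300 bases from 250 before to 50 after the start, and its level pooled over mice was 83.2%. The CpG at -10 bp was at 85.0%, 71.7%, 56.8% and 65.3% in cocaine mice 1 to 4 and at 60.8%, 67.6%, 76.7% and 84.3% in saline mice 1 to 4. The groups overlapped fully, with the highest value of all in a cocaine mouse. At -64 bp the levels ran from 71.4% to 100% in cocaine mice and from 88.0% to 100% in saline mice. Among 255 promoters with at most 5 CG dinucleotides and at least 3 measured cytosines, the median level was 53.4%, and 52.6% of them were at 50% or more. RefSeq lists a second, CpG-rich Pvalb start with 25 CG dinucleotides, at which no shared cytosine was read.

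Erbb4, with 17 CG dinucleotides in its window, was at 0.108% over 15 cytosines, and 7 of the 10 capitalised CpGs had no methylated read in any mouse. Lhx6 start 2, also with 17, was at 0.353%, and Lhx6 start 3, with 11, at 0.982%. Across 7600 promoters with 17 or more CG dinucleotides the median was 0.380%, so both genes lay in the range of promoters of that density. Sox6 start 2 held 13 CG dinucleotides and its window was at 13.9%, above the upper quartile of 1.78% for the 1540 promoters with 11 to 16. That level includes CpGs about 21 and 37 bp after the start, outside the printed stretch. Their means were 30.8% and 37.5% in cocaine mice and 29.3% and 47.5% in saline mice. The CpG at -242 bp of that start was at 2.94%, 2.82%, 0% and 26.1% in cocaine mice and at 9.21%, 3.08%, 6.90% and 8.33% in saline mice. Its highest and lowest values were both in cocaine mice.

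**Figure D1:**
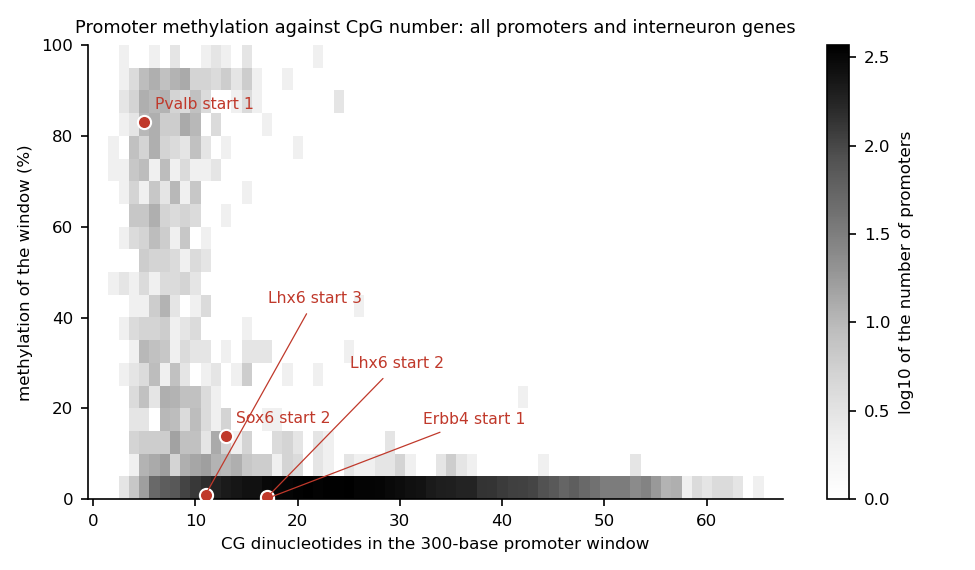
Methylation of the promoter window (percent, pooled over 8 mice) against the number of CG dinucleotides in its 300 bases; grey shading gives the log10 number of promoters and red points are interneuron gene starts with at least 3 cytosines. Pvalb start 1 lies at 83.2% with 5 CG dinucleotides, Sox6 start 2 at 13.9%, and the Lhx6 and Erbb4 starts below 1%.

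A wider view was taken around the start of each gene span. For Pvalb it held the same 4 cytosines as the 300 bases, and for Sox6 it left out start 2, at 13.9%. Windows of 1 kb either side of the gene start were below 5% pooled for 5 of the 7 genes with at least 5 cytosines there, or 71.4%; among the 10176 protein-coding genes with as many, 83.0% were below 5%. The levels were 0.154% for Erbb4, 0.547% for Lhx6, 1.18% for Sox6, 1.65% for Npy, 2.38% for Slc32a1 (only 2 cytosines) and 3.53% for Gad1. Sst was at 6.5%, Gad2 at 7.92% and Pvalb, with 4 cytosines, at 83.2%. For Gad2, Slc32a1 and Sox6 the RefSeq starts lie inside the span and outside this window. Runs 1 to 4 of Gad2, which lie nearest its RefSeq start, were at 0.145% to 0.810% pooled. Vip had no shared cytosine at either end. Levels of the 83 runs depended on the distance to the nearest RefSeq start of any gene: within 2 kb the median was 0.993% over 37 runs, and beyond 10 kb it was 81.5% over 26 runs. In between, from 2 to 10 kb, it was 6.56% over 20 runs of 6 genes, 9 of which were below 5%, or 45%. All runs of the genome at that distance had a median of 77.2%, with 11% below 5%. Within 2 kb and beyond 10 kb the medians of all runs were 0.985% and 83.0%, close to those of the interneuron genes. Runs of 1 gene neighbour each other, so this is a description with no test.

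**Figure D2:**
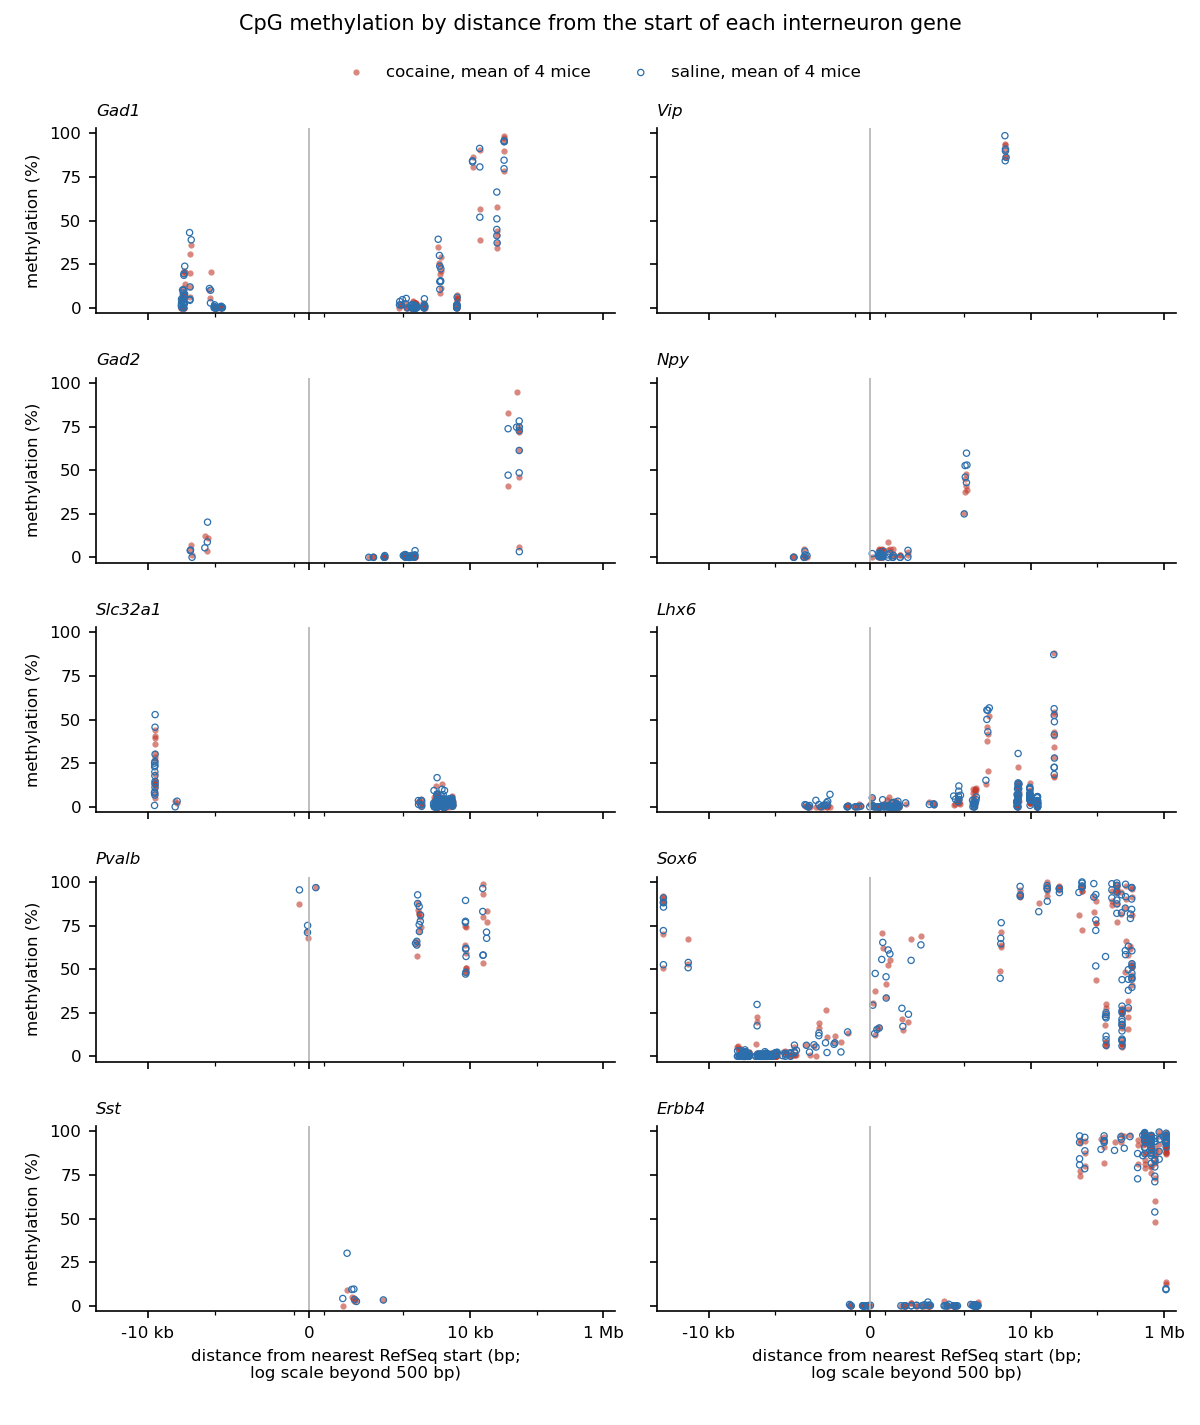
Methylation of each CpG (percent, mean of 4 mice per group) against distance from the nearest RefSeq start of each gene in bp, negative upstream, on a log scale beyond 500 bp; filled red points are cocaine and open blue circles saline. Levels are near 0 around most starts, Pvalb is high at its start, and far inside Sox6 and Erbb4 most CpGs are high while some stretches are low, such as Sox6 run 5 at 14.2%, and the groups' points lie close together.

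The question the design poses is whether cocaine self-administration changed these levels. No run, gene end or gene interior of the 10 genes passed the test, a quasi-binomial regression of methylated reads on group with Benjamini-Hochberg adjustment over all features of that kind. The call needed an adjusted p under 0.05 and a difference of 10 percentage points for runs, or 5 for ends and interiors. Genome-wide, 0 of 92484 runs (0%), 0 of 7336 ends (0%) and 0 of 11074 interiors (0%) were called. At an unadjusted p under 0.05, 2 of the 43 member runs remained, both lower in cocaine; the same rule took 5.65% of all runs (5229), 4.57% lower and 1.08% higher in cocaine. Among the 43 tested runs, the same 2 were the only ones whose groups did not overlap, against 3.29% of all runs, 2.59% with cocaine lower. Both counts are near what these shares give over 43 runs.

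The mean was lower in cocaine mice in 31 of the 43 member runs, with a median difference of -1.33 points; over all runs it was lower in 61.8%, with a median of -1.06 points. Differences ran from -13.95 to 9.79 points, and 39 of the 43 lay within the 5th to 95th percentile of all runs, -9.28 to 5.90 points. The 4 outside were Gad1 run 12, Lhx6 run 5, Sox6 run 3 and Erbb4 run 6. Adjusted p ranged from 0.876 to 0.996. Leaving out 1 mouse moved the count to between 26, without cocaine mouse 3 or saline mouse 3, and 35, without cocaine mouse 4. Without cocaine mouse 3, saline mouse 3 and cocaine mouse 4, the member shares were 60.5%, 60.5% and 81.4%. Over all runs they were 55.8%, 60.5% and 64.5%. The member median was -2.60 points without cocaine mouse 4 and -0.69 without saline mouse 4, against -1.44 and -0.98 over all runs. Cocaine mouse 1 and cocaine mouse 3 each had the lowest level of the 8 mice in 10 of the 43 runs, and cocaine mouse 3 had the highest in none. Saline mouse 1 had the highest in 10 and the lowest in 10.

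**Figure D3:**
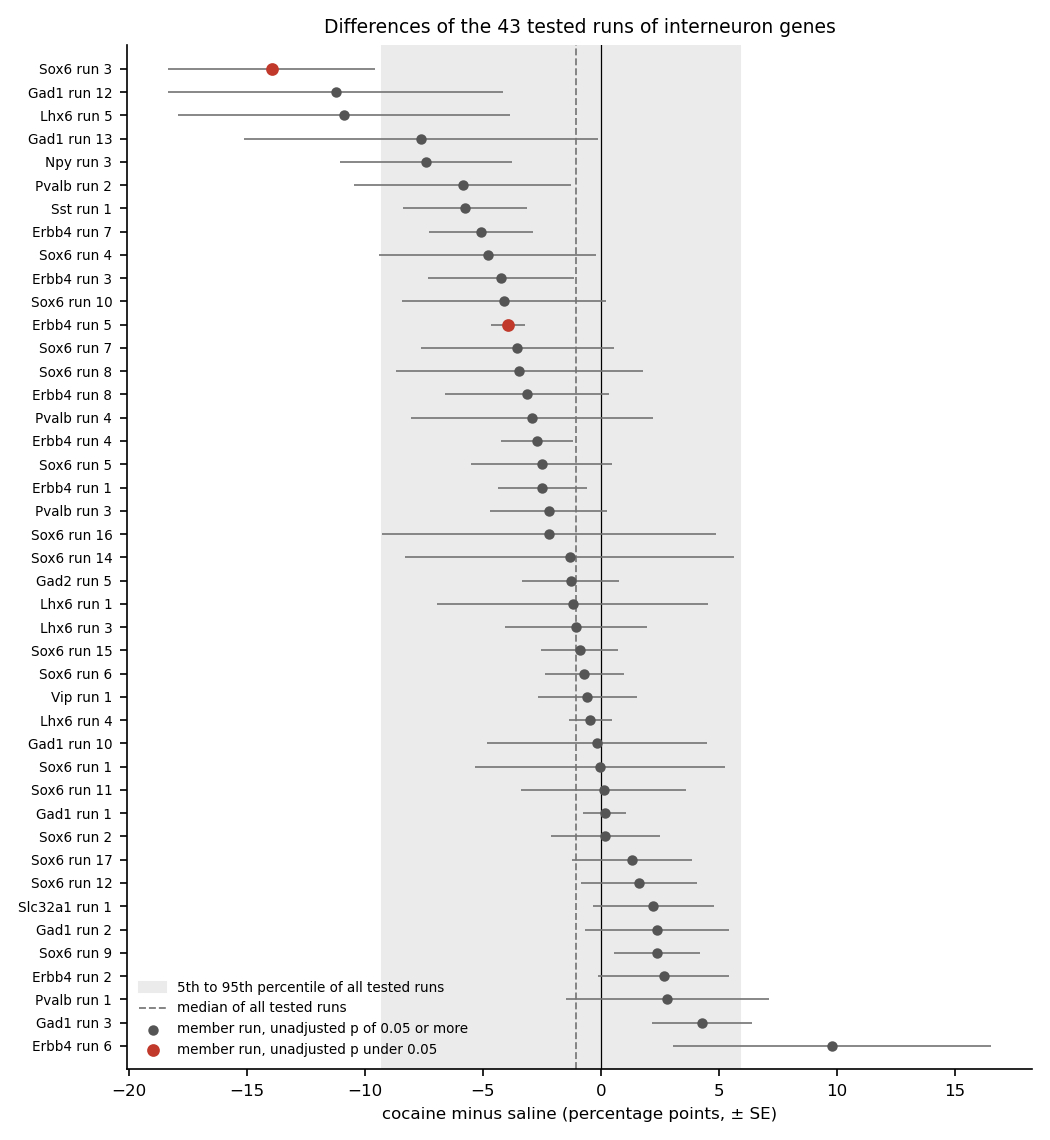
Difference in mean methylation, cocaine minus saline, in percentage points with its standard error, for the 43 tested runs (n = 4 mice per group); the grey band is the 5th to 95th percentile of all tested runs and red marks an unadjusted p under 0.05. Sox6 run 3, at -13.95, is lowest, Erbb4 run 6, at 9.79, is highest, and 39 of 43 lie in the band.

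Of the enzymes and transporter of GABA, Gad1 was covered best. Its span is 70561303 to 70602014 on the plus strand of chromosome 2. The antisense RNA gene Gad1os overlaps Gad1 runs 1 to 7, from the 5 kb upstream through the start window into the gene. The interior, defined as more than 1 kb inside both ends, was at 13.8%, 14.6%, 13.8% and 20.1% in cocaine mice and at 15.4%, 17.7%, 16.1% and 19.1% in saline mice. Cocaine mouse 4 was the highest of all, and the other 3 cocaine mice lay below every saline mouse. The means were 15.6% ± 3.06 in cocaine mice and 17.1% ± 1.66 in saline mice (SD, n = 4 each), a difference of -1.50 ± 1.74 points (SE), with an adjusted p of 0.877 in the quasi-binomial test. It was -3.01 points without cocaine mouse 4, -0.90 without cocaine mouse 3 and -0.82 without saline mouse 4.

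Among the 6 tested Gad1 runs, run 3, within the start window, was at 13.8%, 11.4%, 12.5% and 11.3% in cocaine mice and at 3.10%, 7.16%, 8.72% and 12.9% in saline mice. Only saline mouse 4 reached the cocaine values. The difference was 4.27 ± 2.12 points (SE; adjusted p = 0.887, quasi-binomial test), and it was 2.64 points without saline mouse 1. Run 12, about 14 kb inside the gene, was at 60%, 58.1%, 61.8% and 74.1% in cocaine mice and at 92.6%, 69.3%, 65.2% and 72.1% in saline mice. Saline mouse 1 was the highest there, with 50 to 166 reads per mouse over the run. The difference of -11.24 ± 7.10 points (adjusted p = 0.925, quasi-binomial test) was -5.30 points without that mouse. The other 4 tested runs differed by -7.62 to 2.37 points with overlapping groups. The lowest of them, run 13, was at -15.3 points without saline mouse 1 and cocaine mouse 3 (unadjusted p = 0.0286, quasi-binomial test) and at -2.67 without cocaine mouse 2. The Gad1 start window as a whole was at 3.39% to 5.09% in cocaine mice and 1.38% to 4.19% in saline mice. The upstream flank, from 1 to 5 kb outside the gene, was at 8.40% to 12.5% in cocaine mice and 7.89% to 11.1% in saline mice.

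Gad2 (chromosome 2, 22621015 to 22693877, plus strand) had an interior level of 21.7%, 18.6%, 17.6% and 29.5% in cocaine mice and of 35.7%, 23.8%, 21.0% and 23.6% in saline mice. Saline mouse 1 was highest and the groups overlapped. The difference was -4.16 ± 4.26 points (SE; adjusted p = 0.809, quasi-binomial test). It was -0.929 points without saline mouse 1 and 0.494 points without both saline mouse 1 and cocaine mouse 3, so its direction rested on those libraries. The start window, with 5 cytosines, was at 5.83% to 10.95% in cocaine mice and 4.32% to 14.7% in saline mice. Run 5, the single tested run, was at 63.2% to 65.7% in cocaine mice and 61.3% to 70.6% in saline mice, with saline mouse 1 at 64.8%. The upstream flank held 1 cytosine, at 0% to 13.9% in cocaine mice and 0% to 8.06% in saline mice.

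Slc32a1 (chromosome 2, 158607260 to 158615747, plus strand) was little methylated along its length. Its interior was at 2.54%, 2.74%, 2.04% and 3.52% in cocaine mice and at 0.652%, 3.72%, 3.85% and 3.32% in saline mice, below the level range of the test. The window at its finish, with 54 cytosines, was at 0.912% to 1.71% in cocaine mice and 1.05% to 1.98% in saline mice. Its tested run lies in the upstream flank, where the table also places the gene Gm14204. It was at 26.8%, 29.2%, 20.8% and 19.6% in cocaine mice and at 19.1%, 23.0%, 21.3% and 24.1% in saline mice, a difference of 2.22 ± 2.56 points (adjusted p = 0.946, quasi-binomial test).

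Among the subtype markers, the gene of parvalbumin, a calcium-binding protein of fast-spiking basket cells, was methylated in every run that was read. No shared cytosine was read at its second, CpG-rich start. The Pvalb interior was at 66.4%, 65.2%, 66.6% and 74.4% in cocaine mice and at 70.0%, 72.2%, 74.9% and 73.2% in saline mice. Cocaine mouse 4 lay among the saline mice and the other 3 below them. The difference was -4.44 ± 2.33 points (SE; adjusted p = 0.724, quasi-binomial test). Run 2, with 8 CpGs in the interior (chromosome 15, 78195514 to 78195693), was at 59.2%, 53.8%, 56.2% and 58.8% in cocaine mice and at 49.7%, 67.1%, 68.5% and 66.3% in saline mice. Saline mouse 1 lay below every other mouse, and the other 3 saline mice above every cocaine mouse. The difference was -5.86 ± 4.60 points with all 8 mice and -10.3 points without saline mouse 1, and adjusted p was 0.876 and 0.748 in the quasi-binomial test. Runs 1, 3 and 4 differed by 2.82, -2.22 and -2.92 points with overlapping groups. The downstream flank, which was not tested as a whole, was at 79.8% to 84.1% in cocaine mice and 64.1% to 82.4% in saline mice. Its mean was higher in cocaine mice by 6.33 ± 4.59 points (SE), and saline mouse 1 was the lowest of all.

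Sst (chromosome 16, 23889573 to 23891342, minus strand) encodes somatostatin, the peptide of dendrite-targeting interneurons. Its run of 6 CpGs, just inside the gene, was at 0.893%, 3.15%, 7.69% and 4.76% in cocaine mice and at 15.3%, 7.89%, 5.07% and 11.3% in saline mice. The groups overlapped only through cocaine mouse 3 and saline mouse 3. Reads per mouse over the run were few, 72 to 294. The difference was -5.76 ± 2.63 points (SE, with an adjusted p of 0.881 in the quasi-binomial test), and -3.96 points without saline mouse 1. By CpG, the widest gap was 257 bp after the RefSeq start, with means of 9.30% in cocaine mice and 30.1% in saline mice. At 320 and 307 bp the cocaine mean was higher, at 3.57% against 2.48% and 4.20% against 3.57%. At 303, 289 and 228 bp it was lower, by less. The cytosines of this run also made up the Sst start window. The finish window, which overlaps it in this short gene, was at 2.19% to 6.36% in cocaine mice and 3.08% to 7.56% in saline mice.

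Npy (chromosome 6, 49822710 to 49829507, plus strand) had a little methylated start and a partly methylated run of 6 CpGs about 1 kb inside, from 49823717 to 49823817, which was also all of its measured interior. That run was at 39.0%, 41.3%, 37.8% and 38.3% in cocaine mice and at 55.2%, 38.5%, 48.8% and 43.6% in saline mice. The cocaine mice were close together, and saline mouse 2 lay among them. Means were 39.1% ± 1.55 in cocaine mice and 46.5% ± 7.11 in saline mice (SD, n = 4 each), a difference of -7.39 ± 3.64 points (SE) with an adjusted p of 0.702 among interiors in the quasi-binomial test. Without saline mouse 1 it was -4.51 points. At the Npy start window, cocaine mouse 4 was at 6.20%, and the other mice at 0.409% to 2.66% in cocaine and 0% to 2.91% in saline.

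Vip (chromosome 10, 5639193 to 5647617, plus strand) encodes vasoactive intestinal peptide, found in interneurons that inhibit other interneurons. Its only run, of 4 CpGs in the interior, was at 90.4%, 88.4%, 87.7% and 90.3% in cocaine mice and at 91.8%, 84.1%, 93.0% and 90.2% in saline mice. The saline mice enclosed the cocaine mice, and the difference was -0.58 ± 2.10 points.

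Lhx6 (chromosome 2, 36081950 to 36105992, minus strand) was low over most of its length. Its interior, with 139 cytosines, was at 3.32%, 3.41%, 2.69% and 4.14% in cocaine mice and at 3.65%, 3.81%, 4.12% and 4.88% in saline mice. The tested runs stood above that, at 37.1% for run 5, 34.9% for run 1 at the finish, 6.95% for run 4 and 6.17% for run 3, pooled over mice. Run 5, about 2 kb inside the nearest start, was at 25.8%, 38.8%, 31.2% and 28.0% in cocaine mice and at 60.6%, 34.1%, 39.9% and 32.7% in saline mice. Saline mouse 1 was by far the highest. The difference of -10.88 ± 7.03 points (SE; adjusted p = 0.883, quasi-binomial test) was -4.64 points without it. The finish window was at 33.2%, 34.4%, 32.2% and 45.5% in cocaine mice and at 26.2%, 34.3%, 42.7% and 47.7% in saline mice, with the saline mice spread more widely. Runs 1, 3 and 4 differed by -1.20, -1.05 and -0.44 points with overlapping groups.

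Sox6 is a long gene of chromosome 7 (115470872 to 116040776, minus strand) and had 16 tested runs. The window at the start of its span was nearly unmethylated over 43 cytosines, at 1.04% to 1.75% in cocaine mice and 0.671% to 1.49% in saline mice. The interior was at 19.9%, 23.5%, 19.9% and 25.9% in cocaine mice and at 23.5%, 26.3%, 23.5% and 25.3% in saline mice. The groups overlapped, and the difference was -2.32 ± 1.63 points (SE; adjusted p = 0.813, quasi-binomial test). It was -3.51 points without cocaine mouse 4 and -1.51 without cocaine mouse 3. At Sox6 start 2, the level changed within a short distance: run 17, on the upstream side, was at 6.41% pooled, and run 16, centred 79 bp downstream of the start, at 51.7%. Run 16 was at 33.7% to 65.4% in cocaine mice and 44.4% to 55.7% in saline mice.

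Sox6 run 3 had the largest difference of the tested member runs. It holds 4 CpGs from 115511859 to 115511954, inside the gene and also inside the long noncoding RNA gene Gm51455. It was at 28.6%, 36.9%, 36.8% and 36.7% in cocaine mice and at 38.3%, 48.4%, 51.3% and 56.8% in saline mice. Every saline mouse was above every cocaine mouse, with saline mouse 1 closest to the cocaine mice. The difference was -13.95 ± 4.38 points (SE), with an unadjusted p of 0.0123 and an adjusted p of 0.876 in the quasi-binomial test. Leaving out each mouse in turn gave -17.4 to -11.3 points. By CpG, the difference was -15.4, -5.24, -16.8 and -18.0 points in order of position, and the groups did not overlap at the first and the last. Of the other Sox6 runs with the smallest p, runs 4 and 10 differed by -4.81 and -4.12 points and runs 9, 12 and 17 by 2.37, 1.62 and 1.31 points, all with overlapping groups. Run 10 was at -0.89 points without cocaine mouse 3.

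Erbb4 (chromosome 1, 68031884 to 69108576, minus strand) was nearly unmethylated at its start and highly methylated inside. The interior, with 112 cytosines, was at 65%, 61.1%, 57.6% and 60.6% in cocaine mice and at 65.2%, 64.2%, 64.0% and 64.3% in saline mice. Cocaine mouse 1 lay among the tightly grouped saline mice and the other 3 cocaine mice below them. The means were 61.1% ± 3.04 in cocaine mice and 64.4% ± 0.536 in saline mice (SD, n = 4 each), a difference of -3.37 ± 1.54 points (SE; adjusted p = 0.724, quasi-binomial test). It was -1.93 points without saline mouse 1 and cocaine mouse 3.

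Erbb4 run 5, 11 CpGs from 68598417 to 68598649, was at 93.2%, 90.9%, 90.9% and 91.2% in cocaine mice and at 96.7%, 94.5%, 95.2% and 95.6% in saline mice. The groups did not overlap and both were tight. The difference was -3.95 ± 0.73 points (SE), with an unadjusted p of 0.0174 and an adjusted p of 0.876 in the quasi-binomial test. The mean was lower in cocaine mice at 9 of the 11 CpGs, and the groups overlapped at each of them. Run 6, with 30 to 90 reads per mouse, was at 89.6%, 83.3%, 85.4% and 100% in cocaine mice and at 66.7%, 86.9%, 91.1% and 74.5% in saline mice. Its difference of 9.79 ± 6.73 points (adjusted p = 0.895, quasi-binomial test) was 5.41 points without saline mouse 1. Runs 2, 4 and 7 differed by 2.65, -2.71 and -5.09 points with overlapping groups, and run 7 by -3.30 without saline mouse 1 and cocaine mouse 3.

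**Figure D4:**
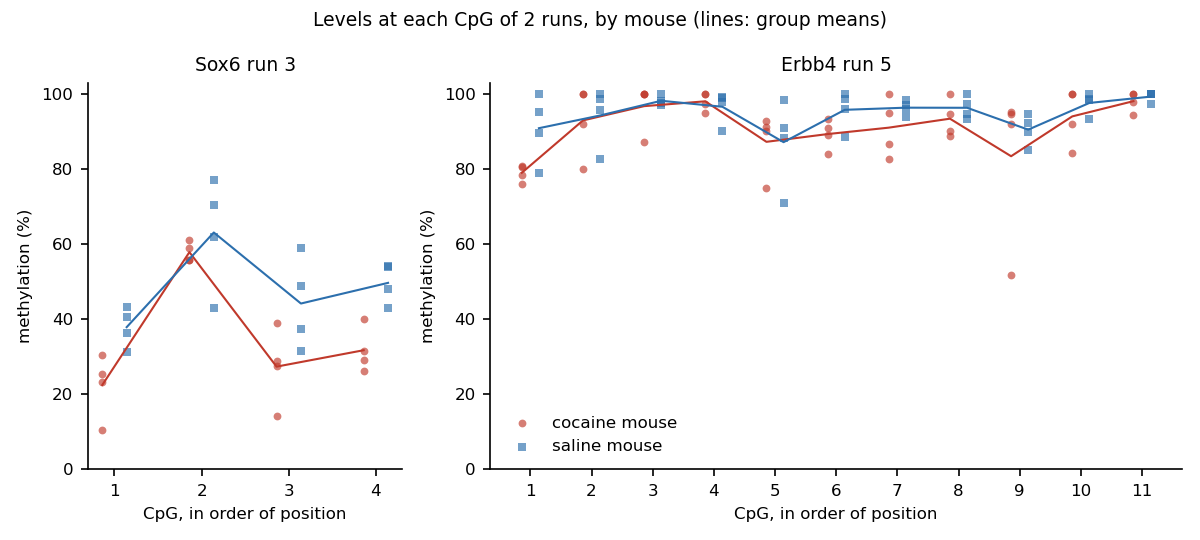
Methylation (percent) of each CpG of Sox6 run 3 and Erbb4 run 5, in order of position; each red circle is a cocaine mouse, each blue square a saline mouse, and lines join the group means. In Sox6 run 3 the saline mice lie above the cocaine mice at the first and last CpG, and in Erbb4 run 5 the groups overlap at each CpG.

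Ordered by interior level pooled over the 8 mice, the genes ran from Slc32a1 at 2.81% and Lhx6 at 3.79% through Gad1 at 16.4%, Sox6 at 23.7%, Gad2 at 23.9% and Npy at 44.1% to Erbb4 at 63.0%, Pvalb at 70.9% and Vip at 89.8%. Sst is too short to have an interior. The ranges over mice overlapped between Slc32a1 and Lhx6, Gad1 and Sox6, Sox6 and Gad2, and Erbb4 and Pvalb; the other neighbours did not overlap. The median over 12132 protein-coding interiors was 67.2%, and 65.1% of them were at 50% or more, as were 3 of these 9. An interior was cut from the gene span, so it also holds RefSeq starts inside the span, as in Gad2, Slc32a1, Lhx6 and Sox6. Low stretches near such starts lower its level: Gad2 runs 1 to 4 were at 0.145% to 0.810%, and its run 5, far inside, at 64.7%. Interiors of other genes also reach close to a start. Erbb4 runs 9 and 10 were at 0.207% and 0%, and its runs 1 to 8, farther inside, at 80.5% to 94.0%. Gad1 runs 6 to 9 were at 0.949% to 2.22%. The order is therefore not one of CpGs far from starts. An interior level is methylated reads over reads, so it also moves with how a mouse's reads split between low and high stretches. In saline mouse 1, Gad2 run 5 was at 64.8% and runs 1 to 4 at 0% to 0.55%, within the range of the other mice. Its Gad2 interior, at 35.7%, was the highest of all. The part of this split in the group differences of interiors was not tested. The cocaine mean was lower in each of the 9 interiors, of which 7 were tested; over all tested interiors the mean was lower in 72.3%. None of the 7 reached an unadjusted p under 0.05, which 7.01% of all interiors did, and in none did the groups fail to overlap, against 4.7%. Without cocaine mouse 4, those of Gad2, Pvalb and Sox6 had an unadjusted p of 0.0421, 0.0190 and 0.0390 in the quasi-binomial test, with adjusted p of 0.349, 0.288 and 0.344. In the genome, 1530 of the 11074 interiors had an unadjusted p under 0.05 without that mouse. The mean over the 9 interiors was 35.8%, 35.4%, 34.0% and 38.5% in cocaine mice and 40.1%, 37.2%, 38.8% and 38.6% in saline mice. The 3 tested ends, at the Gad2 start, the Sst start and the Lhx6 finish, were also lower in mean, as were 64.2% of all ends, with none at an unadjusted p under 0.05, against 5.78% of all ends, and with overlapping groups throughout, whereas 3.6% of all ends did not overlap.

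**Figure D5:**
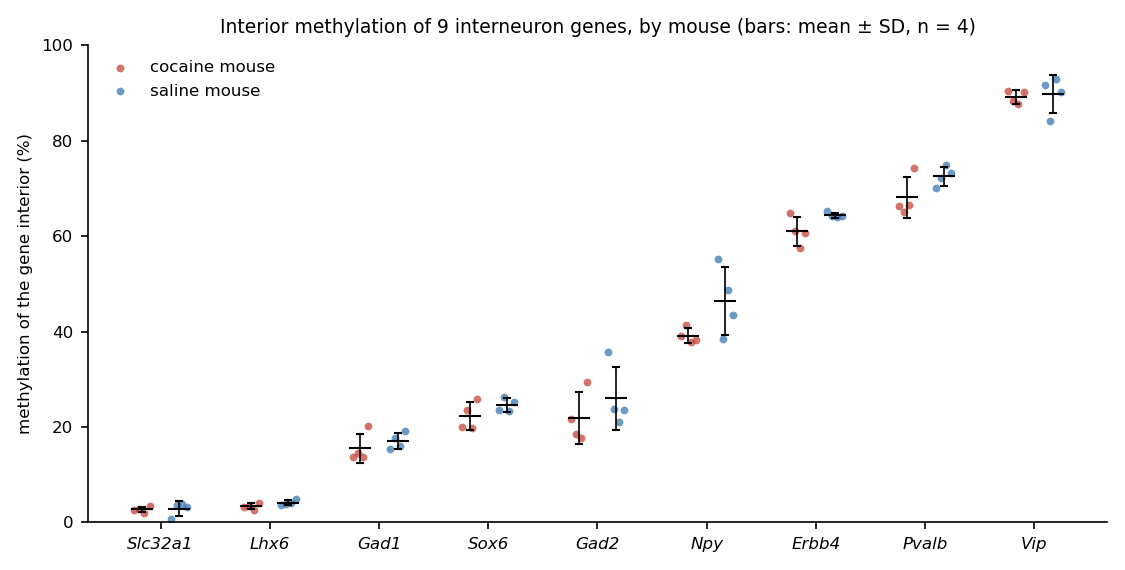
Methylation of the gene interior (percent) in each mouse for 9 genes, in order of the pooled level; red points are cocaine mice and blue points saline mice, with bars for the mean and SD (n = 4 each). Levels run from 2.81% in Slc32a1 to 89.8% in Vip, and the groups overlap in every gene.

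Related genes gave no call either. Of 28 runs in 5 genes of GABA uptake and breakdown, 2 were lower and 1 was higher in cocaine at an unadjusted p under 0.05, the rule that took 4.57% of all runs as lower and 1.08% as higher. The run in Slc6a11, a GABA transporter, was at 91%, 79.6%, 84.8% and 83.3% in cocaine mice and at 50%, 76.9%, 66.7% and 77.0% in saline mice; these groups did not overlap, and the difference was 17.1 ± 6.79 points (adjusted p = 0.876, quasi-binomial test) and 11.2 points without saline mouse 1. The run in Aldh5a1, the succinate semialdehyde dehydrogenase of GABA breakdown, differed by -15.8 ± 7.83 points (adjusted p = 0.876, quasi-binomial test). Among 26 runs of 12 other interneuron transcription factors, 1 was higher and none lower at that p, and the mean was lower in cocaine in 14, with a median of -0.14 points. The run in Dlx1, a homeobox gene of interneuron progenitors, was at 9.15%, 7.36%, 5.81% and 7.35% in cocaine mice and at 1.67%, 4.28%, 1.92% and 5.73% in saline mice. Its groups did not overlap, with an adjusted p of 0.876 in the quasi-binomial test; the run in Sp9 differed by 5.17 points with overlap.

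Of 56 runs in 12 other subtype marker genes, 3 were lower and none higher at an unadjusted p under 0.05, against 4.57% and 1.08% of all runs. The interior of Kcnc1, a fast potassium channel, differed by -4.44 ± 1.61 points (adjusted p = 0.687, quasi-binomial test), 1 of 12 tested interiors of the list at an unadjusted p under 0.05 against 7.01% of all. An end of Htr3a, the ionotropic serotonin receptor subunit, differed by -8.13 ± 3.65 points (adjusted p = 0.789, quasi-binomial test), 1 of 5 ends at that p against 5.78% of all. Of 43 runs in 6 genes of ErbB4 ligands and partner receptors, 1 was lower and none higher, against the same 4.57% and 1.08%. That run, in the neuregulin gene Nrg2, was at 71.9%, 61.5%, 65% and 53.6% in cocaine mice and at 67.7%, 78.3%, 79.0% and 76.2% in saline mice, and a run in Nrg4 differed by -16.3 ± 7.61 points, both with overlapping groups.

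The tissue label could be set against marker genes only by methylation, which is no measure of expression. Among genes with at least 5 cytosines in the start window, those below 5% were 4 of 4 granule cell markers, 3 of 5 pyramidal and mossy cell markers, 10 of 10 other interneuron transcription factors, 6 of 9 other interneuron subtype markers, 2 of 4 astrocyte, 1 of 1 oligodendrocyte and 2 of 2 endothelial genes. Of all 10176 protein-coding genes with as many, 83.0% were below 5% and 6.32% at 50% or more. Calb2 is in both the pyramidal and mossy list and the subtype list. Iyd, of the pyramidal and mossy list, and Cort and Nos1, of the subtype list, were at 50% or more. Median interior levels were 3.49% for 14 other interneuron transcription factors, 17% for 5 granule cell markers, 23.9% for the 9 interneuron genes described here, 32.6% for 14 other subtype markers, 43.3% for 4 astrocyte genes, 46.3% for 5 pyramidal and mossy cell markers, 46.6% for 4 oligodendrocyte genes, 55.8% for 3 endothelial genes and 87.6% for 4 microglia genes. The median over all 12132 protein-coding interiors was 67.2%, and an interior can include CpGs near a start inside the span. No run, end or interior of these lists was called. Over their runs the median difference was -2.24 points for granule cell markers, -0.686 for pyramidal and mossy cell markers, -1.07 for astrocyte, -0.466 for oligodendrocyte, -0.414 for microglia and -2.95 for endothelial markers. The part of cell composition in the differences of the interneuron genes was not tested.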

How the data were processed

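RRBS libraries of 4 cocaine and 4 saline mice were grouped and numbered by their titles. Per the submitters' processing notes, reads were handled with bcl2fastq and Bismark version 22.1 on mm10; whether reads were trimmed or copies removed is not stated there. Per the file headers, each line holds 1 cytosine with a methylation level named as a percent and a coverage. The deposited level is a fraction from 0 to 1, and the coverage the authors deposited is a read count, at least 10 throughout. Level times coverage was whole at 100% of lines, within 1e-06 times the coverage, so methylated read counts were recovered by rounding.

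Shared cytosines (at least 10 reads in all 8 libraries) were summed, with strands apart, over runs (gaps of at most 100 bp, at least 3 CpGs), gene ends (1 kb either side, at least 5 cytosines) and interiors (more than 1 kb inside both ends, at least 5 cytosines). Features with a pooled level of 5% to 95% were tested by quasi-binomial logistic regression on group. Dispersions were moderated with limma 3.58.1 in R 4.3.3 (trend on coverage, floor of 1), and p-values were adjusted by Benjamini-Hochberg over all features of a kind. Levels are methylated reads over reads, group means weight mice equally, and SE is the standard error of the difference of means. Gene spans came from RefSeq, assembly GRCm38.p6, with no exons, so features could not be placed in exons, introns or UTRs. PCR copies carry no identifiers here, so counting error understates the error; each library is 1 mouse. Pairs of libraries of 1 group differed beyond sampling noise, with a chi-square of 4.74 to 10.4 per run, so all were kept as separate replicates.

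The genes and lists were chosen with earlier results of these data known. The text names every covered end and interior of the 10 genes, all tested runs of genes with at most 6, otherwise the 3 of smallest p in each direction and runs at the ends, and 2 genes per related list. Sox6 run 16 was added after its values were seen, for its place at a printed start, and runs with levels below 5% are given as counts. The fits were tested on simulated data.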

Additional observations from a re-analysis of the deposited data

Results flagged for a closer look

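A mouse was marked where its gap to the nearest of its group was large for the group's range by Dixon's test at the 95% level. This took 11 of 96 groups checked, or 11.5%, where chance gives about 1 in 20; several of these values share cytosines. Cocaine mouse 4 was the highest of its group in Gad2 run 5 (65.7%, the next mouse at 63.3%), Lhx6 run 1 (44.1% against 32.6%), Sox6 run 12 (89.5% against 82.2%), the Lhx6 finish window (45.5% against 34.4%, largely the cytosines of run 1), and the interiors of Gad1 (20.1% against 14.6%), Pvalb (74.4% against 66.6%) and Kcnc1 (24.8% against 19.5%). Cocaine mouse 1 was lowest in Sox6 run 3, at 28.6% with the next at 36.7%, and highest in Erbb4 run 5, at 93.2% with the next at 91.2%. In both of those runs the groups did not overlap with that mouse included. Saline mouse 1 was lowest in Pvalb run 2, at 49.7% with the next at 66.2%, and saline mouse 4 was highest in the Aldh5a1 run, at 89.3% with the next at 81.0%. The cause was not tested.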

How the results depend on the processing

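Calls stayed at 0 for runs, ends and interiors in each alternative except the replicate block, which called 1 run, at none of the 10 genes. In their deviations from the group means, same-numbered cocaine and saline libraries correlated at -0.0169, -0.0105, 0.00667 and 0.0772. Differently numbered ones correlated at -0.139 to 0.0644. The numbers thus gave no clear sign of pairing the mice, though such values cannot exclude a shared batch. At an unadjusted p under 0.05, 1 to 4 member runs passed in the alternatives that kept the filter on level. There were 4 of 43 by limma on logit levels and without saline replicate 4, against 4752 and 5105 of 92484 in the genome. There was 1 of 43 without cocaine replicate 2, against 4983 of 92484. With at least 5 CpGs there was 1 of 21, against 2536 of 43827. With no filter on level there were 8 of 83, and the rule also took 8095 of 125876 runs and 1322 of 20903 ends in the genome. For interiors, the genome count was 776 of 11074 with all mice, 1530 without cocaine replicate 4 and 491 without cocaine replicate 1. For ends it was 234 of 4026 with windows of 500 bp. The Erbb4 interior had an unadjusted p of 0.0434 without cocaine replicate 1, and the Npy interior 0.0481 without saline replicate 4 and 0.0371 with the dispersion not moderated, all in the quasi-binomial test fitted across all interiors. The Sst start window had 0.0453 without cocaine replicate 3 and 0.0490 without saline replicate 3 in that test across all ends, and 0.0224 by limma on logit levels. Erbb4 run 5 had 0.0526 without cocaine replicate 2 in that test across all runs. Of 48 named values, 32 kept their direction in each alternative run, and the smallest adjusted p of any was 0.188. The values that reversed were differences of -4.16 to 2.82 points with all mice, and the cause was not tested. Without saline mouse 1 and cocaine mouse 3 together, the difference was -0.177 points for Gad1 run 1, 0.594 for Vip run 1, which is also the Vip interior, and 0.494 for the Gad2 interior. Slc32a1 run 1 was at -5.41 with a coverage of at least 20. Leaving out 1 mouse at a time gave -0.351 to 0.658 points for Gad1 run 1, -4.23 to 3.00 for Gad1 run 10, -2.57 to 0.528 for Gad2 run 5, -0.681 to 5.11 for Pvalb run 1, -6.61 to 0.347 for Pvalb run 4, -2.47 to 0.501 for Vip run 1 and interior, -5.27 to 1.84 for Lhx6 run 1, -3.09 to 1.14 for Lhx6 run 3, -1.13 to 0.0284 for Lhx6 run 4, -0.382 to 2.68 for Sox6 run 12, -0.0895 to 2.93 for Sox6 run 17, -1.65 to 1.80 for the Gad2 start window and -5.25 to 1.90 for the Lhx6 finish window. Depth limits the short runs most: the run with the fewest reads had 30 in 1 mouse.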
